A study of Mus musculus with 6 samples.

Results

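The cytosolic ribosomal protein genes of E0771 cells were followed in 6 libraries, 3 of shControl and 3 of shLmna cells. Members were all genes of the count table whose symbol is Rpl or Rps with a number and, where present, a paralog ending, together with Rplp0, Rplp1, Rplp2 and Rpsa, and the kinases of ribosomal protein S6 were left out. This gave 79 of the 10520 genes in the table, 47 of the large and 32 of the small subunit. Another 6 protein-coding genes whose symbols match in RefSeq were not analysed here (Rpl10l, Rpl26, Rpl30, Rpl32l, Rpl39l and Rpl3l).

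E0771 is a mouse mammary adenocarcinoma line. Both groups carried a stable, puromycin-selected lentiviral vector, which held no shRNA in shControl (an empty vector) and an shRNA against Lmna, the gene of lamins A and C, in shLmna. The titles of the knockdown libraries name the construct shRNA4. MARS-seq was used, a 3' end method for polyadenylated RNA in which a unique molecular identifier (UMI) lets each captured molecule be counted once. The labels do not say whether the replicates were separate cultures, so the spread between them may be technical, and the control and knockdown libraries sat at adjoining positions of 1 plate, which makes plate position and treatment impossible to separate. These are bulk samples, in which fewer cells of a kind and less RNA per cell cannot be told apart.

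Ribosomal proteins surround the ribosomal RNA of both subunits, and cells make them in near-equal numbers together with the RNA. Their transcripts are among the most abundant of a growing cell. Most begin with a run of pyrimidines, the TOP motif, through which the mTOR pathway controls their translation, whereas Myc and related factors act on their transcription and on that of the ribosome assembly factors.

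The target was lower in every knockdown library. Lmna had 2066, 2794 and 1764 UMIs in shControl and 1035, 1023 and 713 in shLmna, a log2 fold change of -1.20 (SE 0.13, adjusted p = 3.55e-05 by edgeR's quasi-likelihood test). Libraries held 1846208 to 3242051 UMIs, and 8969 genes passed the filter on low counts. Of 8 epithelial markers, 4 were in the table. Krt8 had a mean of 276 counts per 1000000 UMIs of the library (CPM) in shControl and 291 in shLmna. Epcam had 13.7 and 7.08, Krt18 6.95 and 4.56, and Krt7 2.62 and 3.75. The others, such as Cdh1, were not analysed here. Of 8 markers each, 2 endothelial ones summed to 5.55 to 7.12 per 1000000 UMIs in shControl and 1.85 to 3.82 in shLmna, 3 leukocyte ones to 15.8 to 18.4 and 21.8 to 26.2, and 4 fibroblast ones to 5.86 to 8.44 and 14.1 to 18.4. The other markers, such as Ptprc and Cdh5, were not analysed here. These sums move with the group at low levels, and their part in the results was not tested. The markers within a sum did not all move alike. Lyz2 had a mean of 6.00 CPM in shControl and 14.7 in shLmna, but Cd68 had 10.2 and 6.48. Col3a1 had 0 and 5.22, and Pdgfra 5.15 and 5.35. The remaining leukocyte and fibroblast markers, Csf1r, Col1a1 and Col1a2, had higher means in shLmna.

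Before any result, 2 libraries must be set apart. Summed over 7 melanocyte markers, among them Pmel, Mlana, Tyrp1 and Dct, shControl replicate 3 held 761 per 1000000 UMIs and shLmna replicate 2 held 642, while the other 4 libraries held 0.739 to 5.62. E0771 is not a melanocyte line, and the study also names libraries of B16F10 melanoma cells for the same plate. The part these transcripts had in the results was not tested, but the counts of called members and the values of the genes that passed are also given without both libraries. In both of these libraries 10 of the 74 tested members were above all 4 others (9.3% of all tested genes were), and 7 were below all 4 others (8.28% of all tested genes).

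The start of 5 members shows how the family varies in 3 short pyrimidine motifs, searched anywhere in a window around the start site. Each run holds the 15 bases before and the 15 bases from the RefSeq start site, 5' to 3' on the gene's strand, from the GRCm38 build, and capitals mark any of the 3 pyrimidine motifs that were searched, whose letters are given with their counts. The first 3 are the genes that passed the test, and the last 2, which did not pass, are shown for contrast because they hold a long match.
Rpl7l1: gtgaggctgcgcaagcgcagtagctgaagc
Rplp2: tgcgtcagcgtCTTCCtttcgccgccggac
Rpl14: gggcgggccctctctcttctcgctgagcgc
Rpl15: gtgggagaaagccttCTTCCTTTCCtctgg
Rps10: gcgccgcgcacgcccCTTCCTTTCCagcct

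These windows lie at chr17:46782642-46782671 for Rpl7l1, chr7:141447636-141447665 for Rplp2, chr9:120571502-120571531 for Rpl14, chr14:18270972-18271001 for Rpl15 and chr17:27635230-27635259 for Rps10. RefSeq start windows were found for 59 of the 79 members. At least 1 of the 3 motifs, searched on the gene's strand only, lay in the window of 23 members, 39.0%, against 10.4% of all 27025 genes with such a window. CTTTCC alone was found in 15.3% of members and 1.67% of all genes, CTTTTC in 8.47% and 1.25%, and CTTCC in 22.0% and 7.83%. A window can hold more than 1 of them, and overlapping matches were counted under each. A match describes the letters and is no evidence of binding or control. The 3 motifs are not the whole TOP motif, so these shares do not count the genes that have one. A window without a match can hold a run of pyrimidines, as that of Rpl14 does across its start site.

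The family took slightly less of the UMIs in the count table in the knockdown. All shares are of a library's UMIs in that table, which does not hold every gene. The family's share was 14.6%, 13.98% and 14.9% in the shControl libraries and 13.8%, 13.5% and 13.7% in the shLmna libraries. Every knockdown library thus lay below every control. The difference of the means was -0.86 percentage points (14.5% ± 0.491 against 13.7% ± 0.174, SD, n = 3 each, exact permutation test, two-sided p = 0.1). With 3 libraries against 3, 0.1 is the smallest p this test can give. Without both libraries that held melanocyte transcripts the difference was -0.56 points, and the remaining libraries did not overlap.

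Counted in UMIs, the large subunit carried most of this difference. Its 47 genes took 8.21%, 8.19% and 8.55% of UMIs in shControl and 7.65%, 7.60% and 7.53% in shLmna, a difference of -0.72 points (exact permutation p = 0.1). The 32 genes of the small subunit took 6.42%, 5.79% and 6.40% in shControl and 6.17%, 5.86% and 6.14% in shLmna (difference -0.14 points, exact permutation p = 0.6), and these values overlapped. The ratio of large to small subunit UMIs was 1.28, 1.42 and 1.34 in shControl and 1.24, 1.30 and 1.23 in shLmna (exact permutation p = 0.2). The control with the lowest ratio lay below the highest knockdown library, so the subunits were not shown to differ in their change. The 72 mitochondrial ribosomal protein genes, which serve the separate ribosome of the mitochondrion, took 1.12% ± 0.0393 in shControl and 1.12% ± 0.0443 in shLmna.

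**Figure D1:**
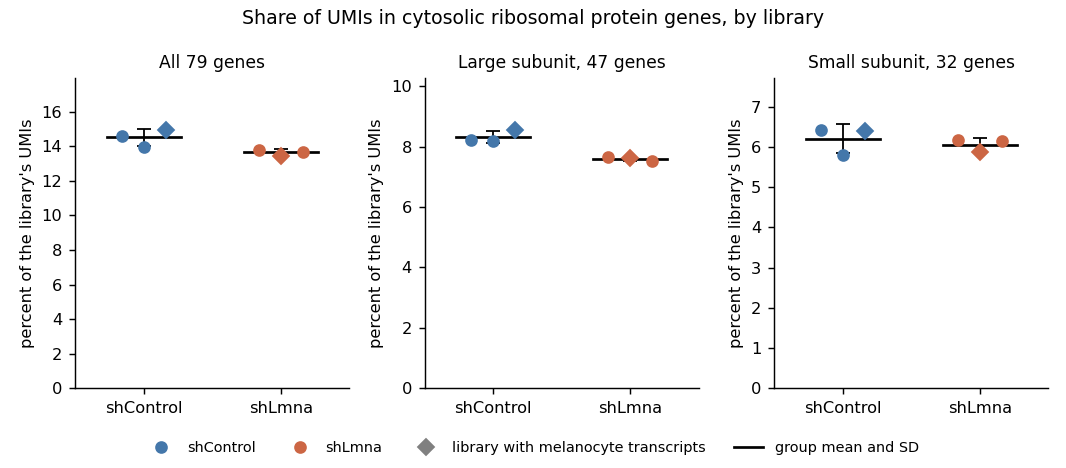
Percent of each library's UMIs in the count table (y axis) in all 79 cytosolic ribosomal protein genes, in the 47 of the large and in the 32 of the small subunit, for shControl and shLmna libraries (points; bars show the mean and SD, and diamonds mark the 2 libraries with melanocyte transcripts). All 3 shLmna libraries lie below all 3 shControl libraries for the whole family and for the large subunit, while the small subunit groups overlap.

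Levels within the family spanned a wide range. A transcript is counted once at its 3' end whatever its length, so CPM values were set side by side without dividing by length. Mean CPM over the libraries went from 1.20 for Rps4l to 7654 for Rplp1, and 43 members lay above 1000 CPM while 7 lay below 20. The 5 most abundant members, Rplp1 and Rpl8 among them, held 21.2% of the family's UMIs and the 20 most abundant 60.2%. These 5 together took 3.50%, 3.08% and 3.00% of a library in shControl and 2.93%, 2.67% and 2.60% in shLmna, without overlap (exact permutation p = 0.1).

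Many members have processed copies elsewhere in the genome. Annotated transcripts of another gene matched the last 300 bases at 95% identity or more over at least 80% of them for 38 members. They came from 45 genes for Rpl7a and 40 for Rps2, and none was found for the other 41 members. These matches are called copies here, whether processed or not. Either strand and any place in the genome counted, so a gene overlapping a member on the opposite strand could be counted as a copy. How reads that match several places were treated is not given in the sources used here, so the levels of genes with such copies are uncertain. Members with such copies had a median of 1794 CPM and the other 41 had 743 CPM, and the 3 genes that passed the test were among the 41. The search covered the last 300 bases, fewer than the 1000 used for counting. Less similar copies were not sought, and the pseudogenes Rpl14-ps1 and Rplp2-ps1 are in the count table. Rps27, with 4 copies, had only 1.60 CPM. Another gene overlapped 17 members on the opposite strand, among them Rps21 and Rpl5. Whether strand was used in counting is not given, so the counts of these members may include reads of the overlapping gene.

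Of the 74 members that passed the filter on low counts, 3 fell and 0 rose at an adjusted p below 0.05 by edgeR's quasi-likelihood test. Among all tested genes 5.78% fell and 7.96% rose, so the 3 members (4.05%) are a share near the background. At an unadjusted p below 0.05, 8 members were lower and 3 higher, against 13% and 15.3% of all tested genes. None met the criteria of the study, which ask for an adjusted p below 0.05, a log2 fold change beyond 1 in either direction and a mean normalised count over 5, and which 5.71% of tested genes met. DESeq2 called 5 lower and 0 higher, against 4.98% and 6.53% of all tested genes. Without both libraries holding melanocyte transcripts, 3 members were called lower (Rpl7l1, Rplp2 and Rpl8) and 3 higher (Rpl15, Rps21 and Rps29, the last chosen after its values were seen). In that fit 5.45% of all tested genes were lower and 7.7% higher.

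The family as a whole was shifted by little. The median log2 fold change of the 74 members was -0.08, with 46 below 0 and 28 above, beside a median of 0.00 over all tested genes. The difference of these medians was -0.087, and it was -0.038 with an offset for GC content and -0.025 without both libraries holding melanocyte transcripts. The other 831 tested genes in the top 10% by CPM had the same median of -0.08, with 61.6% below 0 against 62.2% of the members. By gene the order of the subunits was opposite to that of their UMI shares, with medians of -0.05 for the 44 large and -0.16 for the 30 small subunit genes. Without both libraries holding melanocyte transcripts the median of all members was -0.02. Log2 fold changes ran from -0.76 to 0.78, and 4 members exceeded 0.5 in size.

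**Figure D2:**
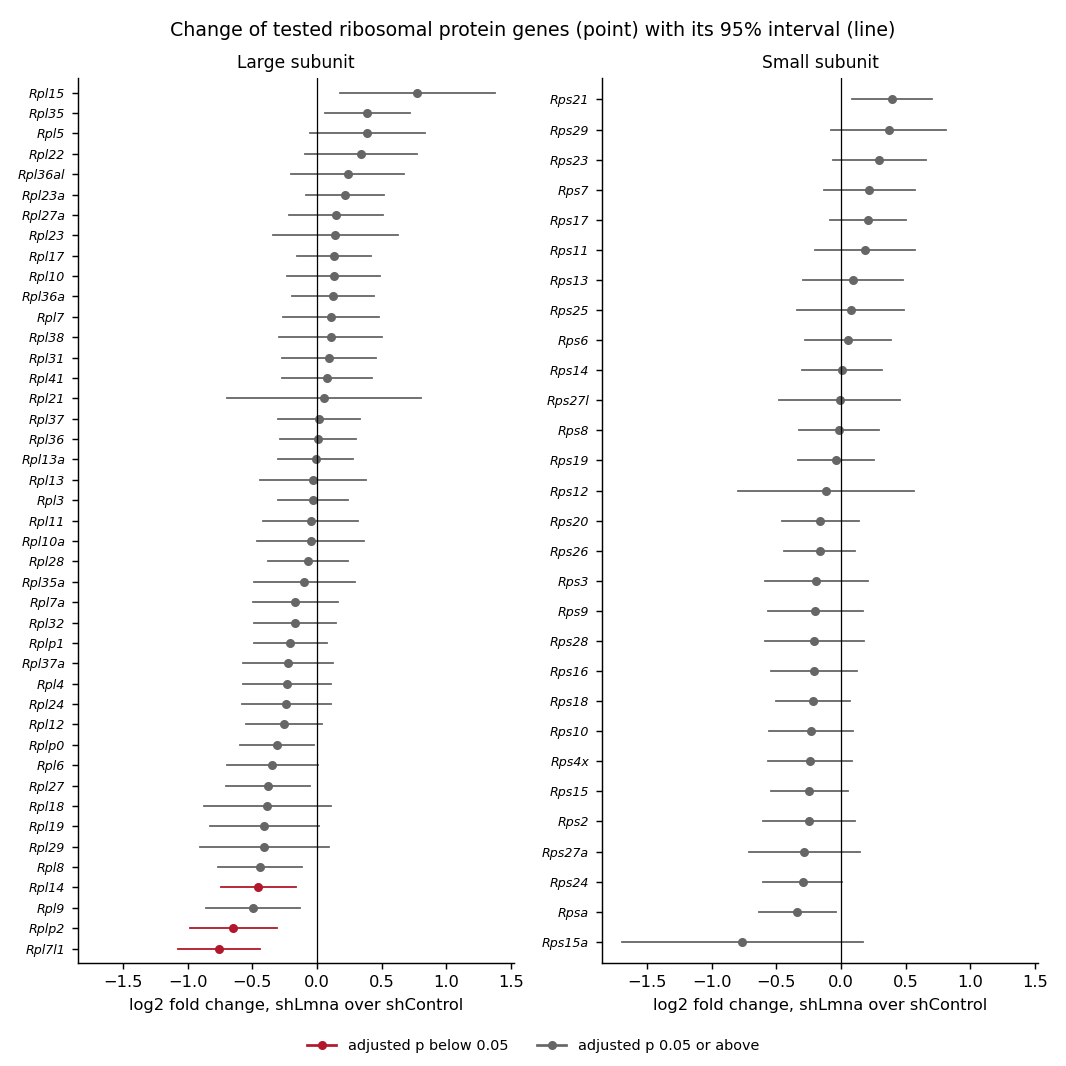
Log2 fold change of shLmna over shControl (x axis) for 43 large and 29 small subunit genes of the 74 tested members, as points with 95% intervals; red marks an adjusted p below 0.05. Rpl7l1, Rplp2 and Rpl14 are red and below 0, most other intervals cross 0, and no point lies beyond 1 in size.

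Rpl7l1, the paralog of Rpl7 that has been found in precursors of the large subunit, had the smallest p of the family. It had 167, 139 and 163 CPM in shControl and 101, 83.7 and 92.5 CPM in shLmna. The lowest control stood well above the highest knockdown library. Its log2 fold change was -0.76 (SE 0.15, adjusted p = 0.0039 by edgeR), and it passed in all 20 alternative fits, with -0.65 without both libraries holding melanocyte transcripts. The gene lies at chr17:46773907-46782672 on the minus strand (GRCm38), its start window holds none of the 3 motifs, and its 3' end has no annotated near-identical copy.

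Rplp2 and its partner Rplp1 are the small acidic proteins that form, on Rplp0, the stalk through which elongation factors reach the ribosome. Rplp2 had 3395, 3310 and 3200 CPM in shControl and 2562, 2094 and 1670 CPM in shLmna. The controls were close to each other, and the knockdown libraries were lower and more spread. Its log2 fold change was -0.65 (SE 0.16, adjusted p = 0.0139 by edgeR), and it passed in 17 of 20 alternatives. The call was lost without shControl replicate 1 (adjusted p = 0.0513), without shControl replicate 2 (0.0777) and without shLmna replicate 3 (0.0834). Rplp2 lies at chr7:141447370-141451585 on the plus strand.

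The other stalk genes also had separate groups, without passing the test. Rplp0 had 4513, 4448 and 3957 CPM in shControl and 3266, 3493 and 3658 CPM in shLmna, with a log2 difference of -0.31 (95% interval -0.60 to -0.03, adjusted p = 0.139 by edgeR). Rplp1, the most abundant member, had 8492, 7869 and 8240 CPM in shControl and 7638, 6968 and 6718 CPM in shLmna, with a difference of -0.21 (95% interval -0.49 to 0.08, adjusted p = 0.337 by edgeR). All 3 stalk genes were thus lower in every knockdown library than in any control, as were 15.7% of all tested genes. Only Rplp2 passed.

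Rpl14, a structural protein of the large subunit surface, was the last to pass. It had 2219, 2549 and 2535 CPM in shControl and 1883, 1850 and 1597 CPM in shLmna, a log2 fold change of -0.45 (SE 0.14, adjusted p = 0.0391 by edgeR). The groups were apart, but the value sat close to the threshold. It passed in 10 of 20 alternatives, and was lost when any single library was left out, with adjusted p between 0.0595 (without shControl replicate 3) and 0.164 (without shControl replicate 2). Without both libraries holding melanocyte transcripts its log2 fold change was -0.45 and its adjusted p 0.0739. Rpl14 lies at chr9:120571444-120574654 on the plus strand.

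**Figure D3:**
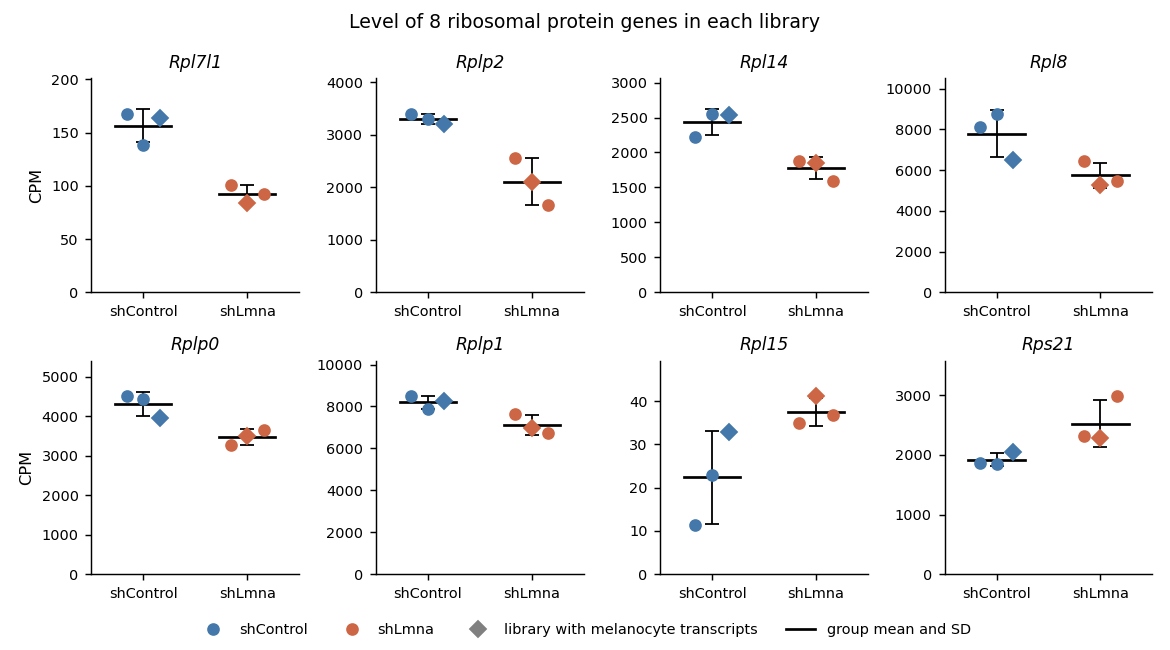
CPM (y axis, from 0) of Rpl7l1, Rplp2, Rpl14, Rpl8, Rplp0, Rplp1, Rpl15 and Rps21 in each shControl and shLmna library (points; bars show the mean and SD, and diamonds mark the 2 libraries with melanocyte transcripts). The first 6 genes are lower in every shLmna library than in any shControl library, and Rpl15 and Rps21 are higher in every shLmna library.

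Just beyond the threshold were Rpl8 and Rpl9, proteins of the large subunit. Rpl8 had 8130, 8754 and 6495 CPM in shControl and 6463, 5290 and 5456 CPM in shLmna (log2 difference -0.44, 95% interval -0.77 to -0.12, adjusted p = 0.0683 by edgeR). The lowest control for Rpl8, shControl replicate 3, was only just above shLmna replicate 1. Rpl9 had 3470, 3061 and 3000 CPM in shControl and 2740, 2363 and 1668 CPM in shLmna, with a difference of -0.49 (95% interval -0.86 to -0.13, adjusted p = 0.0692 by edgeR). DESeq2 called both. Rpl9 has 1 annotated copy, at 100% identity over at least 80% of the last 300 bases.

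The groups did not overlap for 17 members. Of the 74, 14 (18.9%) were lower in every knockdown library than in any control and 3 (4.05%) were higher, against 15.7% and 16.8% of all tested genes. The 14 included Rpl12, Rpl14, Rpl27, Rpl7l1, Rpl8, Rpl9, Rplp0, Rplp1, Rplp2, Rps18, Rps24, Rps26 and Rpsa, and the 3 were Rpl15, Rpl22 and Rps21. Rpl12, Rpl27, Rps18, Rps24, Rps26 and Rps21 are named because of these values. The share among the lower genes was near the background and the share among the higher genes was under it.

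Among the higher values, Rpl15 had the largest difference. Rpl15, a core protein of the large subunit, had 11.4, 22.8 and 32.9 CPM in shControl and 34.9, 41.1 and 36.7 CPM in shLmna (log2 difference 0.78, 95% interval 0.18 to 1.37, adjusted p = 0.0805 by edgeR). It rested on 29 to 112 UMIs a library, and the control that came nearest to the knockdown was shControl replicate 3. Without both libraries holding melanocyte transcripts it passed, with a log2 fold change of 1.03 and an adjusted p of 0.0160, and with an offset for GC content it was 0.50 and did not pass.

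Rps21, one of the smaller proteins of the small subunit, had 1859, 1853 and 2051 CPM in shControl and 2311, 2285 and 2985 CPM in shLmna. Its log2 difference was 0.40 (95% interval 0.09 to 0.71, adjusted p = 0.0867 by edgeR), and the knockdown library farthest from the controls was replicate 3. Rps15a, also of the small subunit, had a difference of -0.76 on 5 to 29 UMIs a library. Its groups overlapped, with 6.67, 9.07 and 5.31 CPM in shControl and 7.50, 2.20 and 2.66 CPM in shLmna, and its 95% interval ran from -1.70 to 0.17.

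The members with well-known roles outside the ribosome did not pass. Rpl5 and Rpl11 form with ribosomal RNA a particle that can bind Mdm2 and so stabilise p53. Rpl5 had 25.5, 26.3 and 36.6 CPM in shControl and 35.6, 33.8 and 45.7 CPM in shLmna (log2 difference 0.39, 95% interval -0.06 to 0.83), while Rpl11 had 572, 674 and 867 CPM in shControl and 573, 800 and 667 CPM in shLmna (difference -0.05, 95% interval -0.41 to 0.32). Both sets of libraries overlapped.

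Rpsa, which also serves as a receptor for laminin, had 2892, 2869 and 2913 CPM in shControl and 2612, 2226 and 2024 CPM in shLmna. Its controls were nearly equal and above all 3 knockdown libraries, and its log2 difference was -0.34 (95% interval -0.63 to -0.04, adjusted p = 0.122 by edgeR). Rps3, which sits at the entry of the mRNA channel and also takes part in DNA repair, had 614, 873 and 891 CPM in shControl and 512, 753 and 816 CPM in shLmna, with overlap (difference -0.19, 95% interval -0.59 to 0.21).

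Other members with roles in signalling, disease or outside the ribosome did not pass either. Rps6, the substrate of the kinases downstream of mTOR, had a log2 difference of 0.05 (95% interval -0.28 to 0.39). Rps19, which is mutated in Diamond-Blackfan anaemia, had -0.04 (-0.33 to 0.25), and Rpl13a, which also restrains translation of inflammatory mRNAs, had -0.01 (-0.30 to 0.28). Rpl41, the shortest of these proteins, had 0.07 (-0.27 to 0.42), and Rps27a, which is made as a fusion with ubiquitin, had -0.28 (-0.71 to 0.14). In each the groups overlapped, and the intervals leave room for changes of the size seen in Rpl14 only in Rps27a.

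Of the most abundant members not yet described, Rps2 had 6752, 4580 and 5412 CPM in shControl and 5554, 4288 and 4269 CPM in shLmna. Rpl4 had 6428, 4342 and 5495 CPM in shControl and 4755, 4983 and 4082 CPM in shLmna. Both are structural proteins, with log2 differences of -0.25 for Rps2 and -0.23 for Rpl4, and in both the controls spread so widely that they overlapped the knockdown libraries.

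Several members exist as pairs of a gene and a paralog with the ending l. Whether such a paralog takes the place of its partner in the ribosome was not tested. Both genes were in the table for 5 pairs, and the share of the l-type gene in the UMIs of its pair was compared, with p-values adjusted over the 5. Rpl7l1 made up 41.6%, 33.9% and 34.4% of its pair with Rpl7 in shControl and 31.5%, 19.8% and 22.3% in shLmna. The groups did not overlap and the share was lower by 12.1 percentage points (36.6% ± 4.30 against 24.5% ± 6.20, SD, n = 3 each, exact permutation p = 0.1, adjusted 0.5). An adjusted p below 0.05 could not be reached here. Rpl7 itself had 235, 270 and 312 CPM in shControl and 219, 340 and 322 CPM in shLmna, with overlap and a log2 difference of 0.11 (95% interval -0.26 to 0.48). Without both libraries holding melanocyte transcripts the share of Rpl7l1 was lower by 10.8 points.

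The other pairs showed overlapping shares. Rpl36al made up 47.6%, 55.6% and 58.5% of its pair with Rpl36a in shControl and 50.7%, 61.3% and 55.9% in shLmna, so both genes were counted in near-equal amounts (exact permutation p = 0.6, adjusted 0.875). Their log2 differences were 0.24 (95% interval -0.20 to 0.67) for Rpl36al and 0.12 (-0.19 to 0.44) for Rpl36a. Rpl22l1 made up 4.76%, 8.33% and 9.76% of its pair with Rpl22 in shControl and 7.23%, 13% and 8.00% in shLmna (exact permutation p = 0.6), on only 41 to 100 UMIs a pair. Rpl22 had 23.5, 24.1 and 19.6 CPM in shControl and 28.9, 31.9 and 24.5 CPM in shLmna, without overlap (log2 difference 0.34, 95% interval -0.09 to 0.77, adjusted p = 0.298 by edgeR).

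At the ends of the range, 1 gene of a pair was nearly all that was counted. Rps27l, a target of p53, made up 99.4% to 99.9% of its pair with Rps27 in the 6 libraries, but Rps27 has near-identical copies and was listed with 1 to 7 UMIs, so its level is uncertain. Rps27l itself had 854, 694 and 611 CPM in shControl and 709, 454 and 983 CPM in shLmna, with wide overlap. Rps4l had 0 to 8 UMIs a library and at most 0.568% of its pair with Rps4x, the X-linked gene, which had a log2 difference of -0.24 (95% interval -0.56 to 0.09). Rpl34 and Rpl39, with Rpl22l1, Rps27 and Rps4l, were the 5 members with too few UMIs to be tested.

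**Figure D4:**
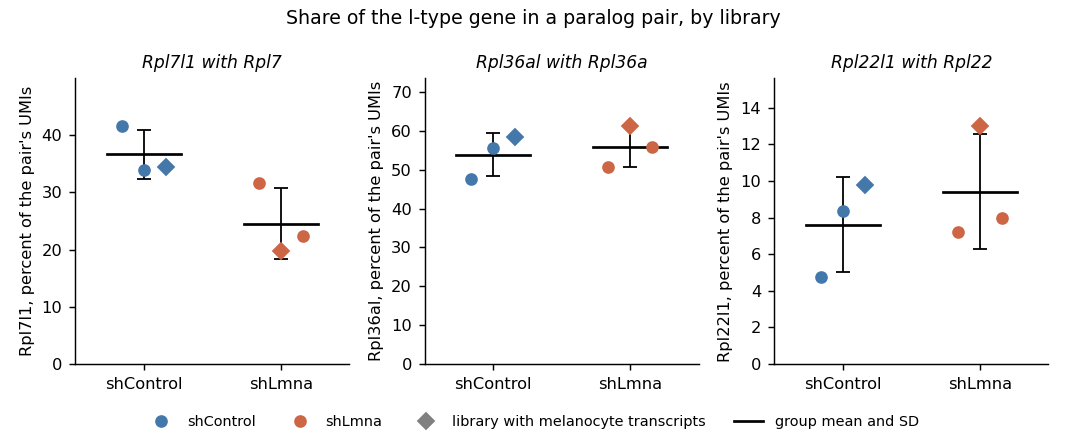
Share of Rpl7l1, Rpl36al and Rpl22l1 in the UMIs of the pair with Rpl7, Rpl36a and Rpl22 (y axis, percent, from 0) in each shControl and shLmna library (points; bars show the mean and SD, and diamonds mark the 2 libraries with melanocyte transcripts). Only the Rpl7l1 share has separate groups, 33.9% to 41.6% in shControl against 19.8% to 31.5% in shLmna.

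The genes that transcribe, process and assemble the ribosome were read beside the proteins that it contains. These lists were chosen with earlier results of the data known, and they are described by counts and medians only. Of 39 tested genes for processing of the small subunit, 15 fell (38.5%) and 0 rose, against 5.78% and 7.96% of all tested genes. Their median log2 fold change was -0.43 and 34 were below 0, as were 49.6% of all tested genes. Together they took 6432 to 6675 per 1000000 UMIs in the shControl libraries and 5025 to 5368 in the shLmna libraries. Bms1, a GTPase of the small subunit processome, had a log2 fold change of -0.80 (SE 0.14, adjusted p = 0.0021 by edgeR), Nat10, an RNA acetyltransferase, -0.79 (SE 0.15, adjusted p = 0.0036), and Nop14, a processome component, -0.71 (SE 0.14, adjusted p = 0.0040).

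Of 43 genes for the large subunit, 9 fell (20.9%) and 0 rose, against 5.78% and 7.96% of all tested genes, with a median of -0.30 and 38 below 0 (49.6% of all tested genes). Nhp2, of the particles that modify ribosomal RNA, had 870 CPM ± 82.4 in shControl and 490 CPM ± 41.2 in shLmna (SD, n = 3 each; log2 fold change -0.83, adjusted p = 0.0012 by edgeR). Npm1, the nucleolar chaperone nucleophosmin, had -0.70 (adjusted p = 0.0091) and Nmd3, the export adaptor of the large subunit, -0.63 (adjusted p = 0.0117). Without both libraries holding melanocyte transcripts 13 of 39 and 8 of 43 fell, against 5.45% of all tested genes. Leaving out a single library moved these counts to between 6 and 16 and between 2 and 12, lowest in both lists without shControl replicate 2, where 2.04% of all tested genes fell.

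Of 15 genes of RNA polymerase I and its factors, 4 fell (26.7%) and 1 rose (6.67%), against 5.78% and 7.96% of all tested genes, and the median was -0.31. The 4 became 0 without shControl replicate 2, 2 without shControl replicate 1 and 1 without any single shLmna library. Taf1a and Taf1c, which belong to the factor that selects the ribosomal RNA promoter, had -0.86 (adjusted p = 0.0096 by edgeR) and -0.63 (adjusted p = 0.0302), and Polr1b, a polymerase subunit, had -0.66 (adjusted p = 0.0219). Twistnb, another polymerase subunit, had 3, 4 and 4 UMIs in shControl and 32, 45 and 33 in shLmna, the largest change in these lists (log2 fold change 3.35, adjusted p = 4.7e-05).

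Of 16 regulators of ribosomal protein expression, 1 fell and 0 rose. The share that fell, 6.25%, was near the 5.78% of all tested genes, and without shControl replicate 3 the counts were 2 and 1. The gene that fell was Myc, the transcription factor, with 1543, 1842 and 1150 UMIs in shControl and 765, 785 and 491 in shLmna (log2 fold change -1.10, SE 0.13, adjusted p = 7.0e-05 by edgeR). Mtor itself, the kinase at the head of the TOP pathway, had a log2 difference of 0.0016 (adjusted p = 0.998).

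Transcripts outside the ribosome that begin with a TOP motif showed 4 that fell of 19 (21.1%, against 5.78% of all tested genes), with 18 below 0 (49.6% of all tested genes) and a median of -0.20. Npm1, among the 4, was also counted with the large subunit processing genes. The 4 became 2 without shControl replicate 2 and 7 with melanocyte transcripts as a term. Eif3e, a subunit of an initiation factor, had 89, 85 and 82 UMIs in shControl and 16, 41 and 22 in shLmna (log2 fold change -1.66, adjusted p = 0.0020 by edgeR), and Hnrnpa1, an RNA-binding protein, had -0.76 (adjusted p = 0.0060). Of 66 tested mitochondrial ribosomal protein genes 2 fell, Mrps18a with -0.59 (adjusted p = 0.0134) and Mrps11 with -0.61 (adjusted p = 0.0230), and the median was -0.07. The 2 (3.03%) were a smaller share than the 5.78% of all tested genes. They became 0 without shControl replicate 2, shLmna replicate 2 or shLmna replicate 3, and 1 without shControl replicate 1 or without both libraries holding melanocyte transcripts. Of 3 components of the cytosolic ribosome whose symbols do not match, such as Fau, none passed (median -0.21).

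**Figure D5:**
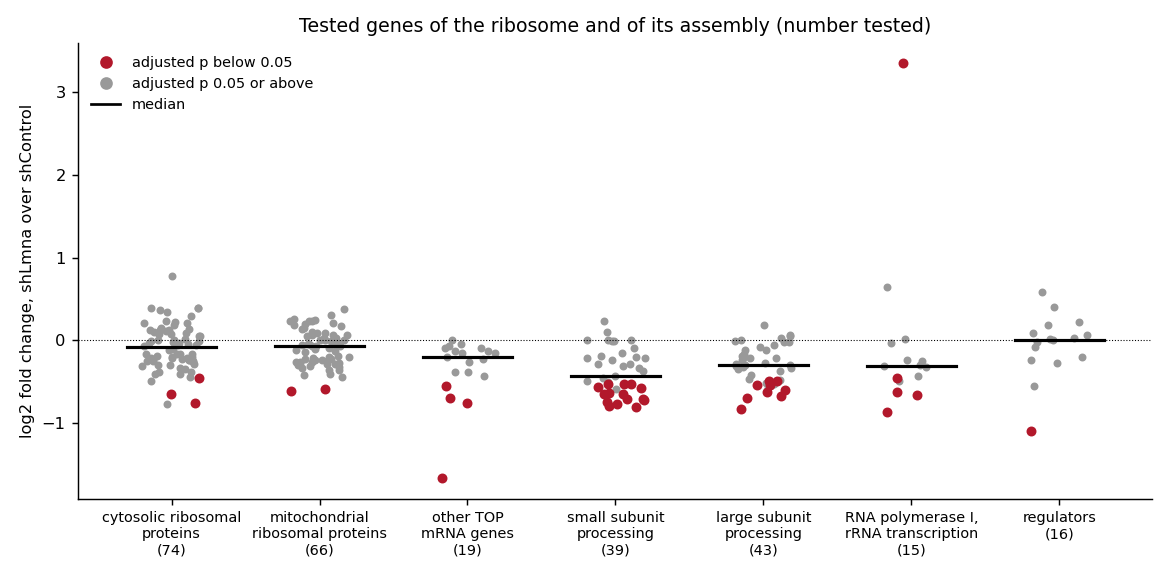
Log2 fold change of shLmna over shControl (y axis) for the tested genes of each list (number in brackets on the x axis); red points have an adjusted p below 0.05 and lines are medians. The cytosolic and mitochondrial ribosomal proteins centre near -0.08 and -0.07, and the small and large subunit processing genes at -0.43 and -0.30.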

How the data were processed

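Polyadenylated RNA of E0771 cells was profiled by MARS-seq in 3 shControl and 3 shLmna libraries, grouped by their labels. The authors trimmed reads with cutadapt, mapped them to mm10 with STAR 2.4.2a and counted UMIs with HTSeq in a window at the gene end, 1000 bases inside and 100 bases beyond each RefSeq gene. The deposited counts are whole numbers without normalization. The handling of reads with several matches and of strand is not given in the sources used here. A deposited table of log2 values, normalized by the authors and corrected with ComBat, and the authors' DESeq2 table, which holds their fold changes and p-values, were not used.

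The tests were run in edgeR 4.0.16 under R 4.3.3. filterByExpr with a minimum count of 10 kept 8969 of 10520 genes, libraries were scaled by TMM factors, and groups were compared by the quasi-likelihood test with Benjamini-Hochberg adjustment over all tested genes, at 0.05. CPM uses TMM-scaled library sizes, and 95% intervals are from the same fit. Shares of UMIs were compared by two-sided exact permutation tests over libraries with scipy. DESeq2 1.42.0 and limma 3.58.1 (voom), other scalings and filters, thinning, a GC offset, a replicate block and leaving out each library were alternatives. Fits without both libraries holding melanocyte transcripts, or with these as a term, were added after the data were seen. The scripts were tested on simulated counts.

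Transcripts and positions came from GENCODE M21 (GRCm38), start windows from RefSeq (GRCm38.p6), and copies from a blastn search of the last 300 bases of RefSeq-linked transcripts. A GENCODE transcript was matched to 10468 genes. Both groups carry the numbers 1, 2 and 3. Over all genes, libraries of the same number deviated from their groups with correlations of 0.35, -0.11 and 0.0052. Over the tested members the correlations were 0.54, -0.33 and -0.12. The numbers were not taken to pair the libraries, and the replicate block was run as an alternative.

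Libraries held 1846208 to 3242051 UMIs, and counts near 0 limit the least abundant members. Replicates of a group differed by more than sampling noise. The members, lists and rules were chosen with earlier results of these data known. Members are named with values when they pass the threshold, are the 5 most or 3 least abundant, form a paralog pair in the table, are the 3 largest differences that do not pass, or belong to a set of 12 well-studied members. From each list at most 3 called genes per direction are named. Values of some members are not reported here. Others are said to be chosen after their values were seen.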

Additional observations from a re-analysis of the deposited data

How the results depend on the processing

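The lower share of UMIs, the fall of Lmna and the negative median of the members kept their direction under every alternative run, and Rpl7l1 passed in all of them. The share differed by -1.13 to -0.65 points when 1 library was left out. Pairing by replicate number leaves the difference of the means at -0.86 by arithmetic, so it was no check of the share. The median of the members less that of all genes was -0.087, -0.038 with the GC offset and -0.036 with this and the replicate block. The median of the members ranged from -0.12 to -0.06 when 1 library was left out. Members called lower numbered 5 with DESeq2, 5 with the GC offset, 7 with melanocyte transcripts as a term, and 1 to 5 when 1 library was left out (1 without shControl replicate 1, shControl replicate 2 or shLmna replicate 3). Members called higher numbered 1 with limma-voom, 1 with the replicate block, 1 with the GC offset and replicate block together, 3 without the 2 libraries holding melanocyte transcripts, 4 with these transcripts as a term, and 0 to 4 when 1 library was left out, where the 4 came without shControl replicate 3. With the replicate block 4 members were called lower. All called genes numbered 1232, 779 with a mean count of at least 50, 1868 with melanocyte transcripts as a term and 540 to 1580 when 1 library was left out. Of the 1232, 714 were higher and 518 lower, against 724 and 773 with the GC offset. Scaling by library totals alone moved the median of all genes to 0.06.

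Lower calls among small subunit processing genes ranged from 6 to 16 and among large subunit processing genes from 2 to 12 when 1 library was left out, and the latter were 14 with melanocyte transcripts as a term. All the gene lists were run through the alternatives after the data were seen. The share of the l-type paralog changed direction in 4 of the 5 pairs. When 1 library was left out, it differed by -0.0027 to 2.88 points for Rpl22l1, -0.12 to 0.16 for Rps27l, -1.08 to 4.68 for Rpl36al and -0.239 to 0.0451 for Rps4l, whereas Rpl7l1 stayed between -15.6 and -9.61. For Rps4l, a log2 ratio to Rps4x with a pseudocount of 1 UMI in place of the share differed by 0.0037 between the groups, the opposite sign to the share itself (-0.0895 points). Pairing by replicate number leaves the Rpl7l1 difference at -12.1 points by arithmetic, so it was no check of that share.

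Named members close to 0 changed sign. With library totals alone the log2 difference was 0.042 for Rps27l, 0.042 for Rpl13a, 0.014 for Rps19 and 0.0046 for Rpl11. Without the 2 libraries holding melanocyte transcripts it was 0.13 for Rps27l, 0.082 for Rpl13a and 0.018 for Rps19. Rps27l was 0.0012 with upper-quartile scaling, and Rpl13a was 0.019 with the GC offset and 0.022 with this and the replicate block. With 1 library left out, the log2 difference ran from -0.31 to 0.23 for Rps27l, from -0.084 to 0.044 for Rpl13a, from -0.12 to 0.019 for Rps19, from -0.19 to 0.12 for Rpl11, from -0.057 to 0.18 for Rps6, from -0.087 to 0.21 for Rpl41, from -0.032 to 0.20 for Rpl36a and from -0.0097 to 0.27 for Rpl7. The cause of these changes was not tested. Depth limits the 7 members under 20 CPM, of which 2 had enough UMIs to be tested.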

Other observations

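Genes close to the symbol rule but outside it had small differences. Rps3a1, whose product is a protein of the small subunit, had 2875, 3610 and 2243 UMIs in shControl and 3089, 3387 and 1896 in shLmna (log2 difference -0.02, adjusted p = 0.960 by edgeR's quasi-likelihood test). Rpl37rt, a retrotransposed copy of Rpl37, had a log2 difference of -0.07 (adjusted p = 0.786), and the pseudogene Rpl14-ps1 -0.34 (adjusted p = 0.675) on 13 to 50 UMIs a library. The pseudogenes Rplp2-ps1 and Rps19-ps3 held 0 to 7 and 6 to 12 UMIs a library and were not tested.

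Rps12, chosen after its values were seen, had the largest SE of the log2 difference (0.32) among the members above 1000 CPM. It had 3936, 1828 and 2029 CPM in shControl and 3893, 1785 and 1513 CPM in shLmna, so that replicate 1 of both groups stood apart from the others. Its log2 difference was -0.12 (95% interval -0.79 to 0.56), and 18 near-identical copies of its 3' end are annotated.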
